A study of Homo sapiens with 12 samples.

Results

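The zinc finger genes of human chromosome 19 were followed as a group in double-stranded RNA. They are the 251 protein-coding genes of that chromosome with a symbol that starts with ZNF, of 1472 protein-coding genes that GENCODE release 29 places there on GRCh38. The rule used name and position and no measured value. Rows of the deposited table were summed for a member if they lay on its strand in 1 gene only and shared no exon base. Of the 251 members, 201 had at least 1 such row. Of these, 146 had enough reads to be tested and 55 had too few. The other 50 had no row that could be summed, which does not mean that they had no reads. With rows of more than 1 gene included, 191 members were tested.

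Most of these genes code for proteins with a run of C2H2 zinc fingers, each of which contacts a few bases of DNA. Many also carry a KRAB domain, which binds the corepressor TRIM28 and through it brings the histone methyltransferase SETDB1 to the bound DNA, and many KRAB zinc finger proteins bind transposable elements and keep them silent. The genes spread by tandem duplication, so neighbours resemble each other, and their introns hold many Alu copies, which can pair within a transcript when they lie in opposite directions.

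The libraries held RNA collected with J2, an antibody against double-stranded RNA, from NCI-H1944, a human lung adenocarcinoma cell line. SCR cells were wild-type, and IFNAR1sg cells had a knockout of IFNAR1, a subunit of the type I interferon receptor. Each genotype received DMSO or MPS1i (BAY-1217389, an inhibitor of the spindle checkpoint kinase MPS1) at 100 nM for 48 h. A washout and 24 h of further culture followed in all groups. The IFNb groups had DMSO for the 48 h and IFNb (recombinant interferon beta) at 5 ng/ml in those 24 h. The 6 groups had 2 libraries each, 12 in all. Whether the 2 libraries of a group came from separate cultures, and whether the knockout cells were 1 clone, is not stated in the labels, so p-values measure the spread between these libraries, which may be technical. Input RNA was not analysed here, so the amount of a transcript and its double-stranded share cannot be told apart, nor can fewer cells of a kind and less RNA per cell.

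The deposited values were counts of reads in short stranded genomic rows. A member's value is the sum of its rows that share no base with an exon and lie in 1 gene only, so it is mostly intronic RNA. Levels are in CPM, reads relative to the library size scaled by TMM factors. A change is a log2 fold change with its standard error after ±, from n = 2 libraries in each group. A sum was called when its adjusted p was under 0.05. Every adjusted p for a gene sum comes from the quasi-likelihood test of edgeR with Benjamini-Hochberg adjustment over all 14385 gene sums tested.

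Library totals ran from 3739443 to 7430687 reads, and 1 read was worth 0.158 to 0.376 CPM. The SCR IFNb pair stood apart: 295367 and 296843 of its rows held a read, against 566704 to 935974 elsewhere. Exon-sharing rows took 49.6% and 47.9% of its reads, against 33.2% to 39.7%. As a check of the treatments, 8 of 8 interferon-stimulated genes (ISG15, IFI6, IFI44L, CMPK2, RIGI, IFIT1, OAS2 and MX1) rose with MPS1i and with IFNb in SCR and with MPS1i in IFNAR1sg. With IFNb in IFNAR1sg 7 of the 8 also rose, with a median log2 fold change of 2.27 against 4.02 in SCR. The IFNAR1 sum ranged from 0 to 8.03 CPM and did not pass the test between genotypes in DMSO, and as an intronic sum it does not measure the targeted part. Of the markers of lung epithelium, 6 of 7 had summed rows, with a total between 96.3 and 158 CPM. Those of fibroblasts (3 of 4 with summed rows) came to at most 2.82 CPM and those of leukocytes (2 of 3) to at most 0.706 CPM. Those of endothelium (3 of 3) came to between 3.17 and 11.5 CPM. Some markers moved with the treatments: KRT7, KRT8 and KRT18 rose with MPS1i in SCR, CDH1 and KRT7 fell and KRT18 rose with IFNb in SCR, and with MPS1i in IFNAR1sg KRT7 and KRT8 rose and KRT18 fell. VWF was called higher there, from 0 and 0.159 CPM to 3.88 and 2.62. Their part in the members' results was not tested.

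Summed over all members, the zinc finger genes held 2518 and 2454 CPM with DMSO, 2110.0 and 2056 with MPS1i, and 1709 and 1659 with IFNb in SCR cells. The values for IFNAR1sg were 2461 and 2545 CPM with DMSO, 2232 and 2172 with MPS1i, and 2214 and 2284 with IFNb. As scaled here, both libraries of every treated group thus lay below both DMSO libraries of their genotype, and the SCR IFNb pair was the lowest of all. With factors computed on the gene sums, the median change of all gene sums with IFNb in SCR moved by 0.60. The sums were not recomputed under that scaling, so the place of the SCR IFNb pair depends on the scaling used. Between 164 and 190 members had a read in a library. Among tested members the level in SCR DMSO had a median of 6.72 CPM and ran from 0.0968 CPM to the 294 CPM of ZNF83, a gene singled out here after its values were seen. ZNF83 held 293 and 295 CPM with DMSO, 352 and 340.5 with MPS1i and 310.0 and 298 with IFNb in SCR, and rose with MPS1i (0.24 ± 0.09, adjusted p = 0.032). Per kb of summed rows, ZNF865 had the highest SCR DMSO level of the members at 15.8 CPM, followed by ZNF155 at 8.72, ZNF146 at 7.63 and ZNF701 at 7.11. The 12 libraries held 133575 member reads in 9339 rows, and 83 of the 146 tested members reached the minimum of the filter in all 12 libraries. Another 6 members reached it in 2 libraries only, among them ZNF446 and ZNF536, and 19 in at most 4, so a high value in those libraries was needed for them to be tested at all.

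MPS1 inhibition in SCR cells lowered more zinc finger gene sums than it raised. Of 146 tested members 37 fell and 10 rose. Over all gene sums tested, 21.8% fell and 22.3% rose. The median log2 fold change of the members was -0.33, against 0.07 over all gene sums. The same contrast gave 33 lower, 32 higher and a median of 0.05 in 192 ZNF genes of other chromosomes. In 563 other protein-coding genes of chromosome 19 it gave 172 lower, 66 higher and a median of -0.31. The members' median thus lay close to that of their chromosome and below that of ZNF genes elsewhere, and no test of the difference between these lists was run. Both MPS1i libraries lay below both DMSO libraries for 69 of 146 members (33.7% of all gene sums) and above both for 23 (38.3% of all). The median of the members lay 0.41 below that of all gene sums as scaled here and 0.40 to 0.41 below it under 3 other scalings, of which that without TMM factors moved the median of all gene sums by -0.17. Without replicate 1 of SCR MPS1i 31 members were called, and without replicate 2 of that group 28.

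The member with the smallest p in this contrast was ZNF146 (chr19:36214602-36238774, plus strand), which codes for a protein known to consist almost wholly of zinc fingers, with no KRAB domain. Its sum was 142 and 147 CPM with DMSO, 66.7 and 70.6 with MPS1i and 51.3 and 55.3 with IFNb in SCR. Both MPS1i libraries were thus far below both DMSO libraries, and the IFNb libraries were lower again. The log2 fold change with MPS1i was -1.07 ± 0.12 (adjusted p = 1.55e-13). It was -0.43 when exon-sharing rows were added and -0.66, with an adjusted p of 0.21, when only rows naming no repeat were summed. ZNF331 (chr19:53519527-53580269, plus strand), an imprinted KRAB zinc finger gene, stood at 45.7 and 38.9 CPM with DMSO, 17.9 and 11 with MPS1i and 11.9 and 10.9 with IFNb in SCR. Its change with MPS1i was -1.59 ± 0.20 (adjusted p = 1.31e-11), and the DMSO libraries did not overlap with those of either treatment.

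Of the other members that fell with MPS1i in SCR, ZNF431 (chr19:21142024-21196053, plus strand) had the largest change of the 12 with the smallest p, from 12 and 9.3 CPM to 2.16 and 3.45 (-1.87 ± 0.38, adjusted p = 2.17e-05). ZNF808 (chr19:52527652-52564464, plus strand), whose protein binds the endogenous retroviral MER11 elements, went from 30.8 and 28.9 CPM to 13.6 and 13.6 (-1.13 ± 0.21, adjusted p = 4.34e-06). ZNF573 went from 109 and 92 CPM to 65.8 and 62.8, and ZNF875 from 57.1 and 49.8 to 27.5 and 29.1. In each of these 4 genes the MPS1i pair lay below the DMSO pair without overlap. ZNF473, whose protein takes part in the 3' end processing of histone pre-mRNA, went from 42.3 and 40.3 CPM to 26.3 and 23.1 (-0.75 ± 0.17), and its adjusted p was 0.070 over rows that name no repeat. ZNF254, ZNF160 and ZNF460 fell by 1.07, 1.20 and 1.06 on the log2 scale. ZNF614 and ZNF865 were called as well, at -1.15 ± 0.25 and -0.51 ± 0.12. ZNF614 had a log2 fold change of 0.079 once exon-sharing rows were added, and ZNF865 one of 0.27 over rows that name no repeat, so neither direction held under that choice.

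Of the 10 members that rose, 8 are named here by size of p, and their levels were mostly low. ZNF155 was the exception, with 153 and 147 CPM in SCR DMSO and 205 and 185 in SCR MPS1i, a change of 0.38 ± 0.11 (adjusted p = 0.00213). ZNF211 went from 1.17 and 0.775 CPM to 5.56 and 4.1 (2.25 ± 0.63, adjusted p = 0.00184), and its reads numbered 7 and 4 with DMSO and 18 and 19 with MPS1i. ZNF578 went from 1.00 and 1.36 CPM to 4.33 and 4.75, and ZNF471 from 2.33 and 1.74 to 4.64 and 6.48. ZNF773, ZNF846 and ZNF304 had changes of 1.15 ± 0.34, 1.22 ± 0.44 and 1.20 ± 0.44. ZNF446 had 2 and 1 reads with DMSO and 5 and 10 with MPS1i. In all 8 the MPS1i pair lay above the DMSO pair, and ZNF211 passed the test under 22 of the 22 alternatives run for it, the other 7 under fewer than all of theirs. ZNF211 and ZNF578 reached the minimum of the filter in 4 and 5 libraries, with their highest values in MPS1i libraries. They were thus tested because they were high there, and their call supports nothing further. ZNF446 reached that minimum in 2 libraries only, and a high value there was needed for it to be tested, so its call supports nothing further either.

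**Figure D1:**
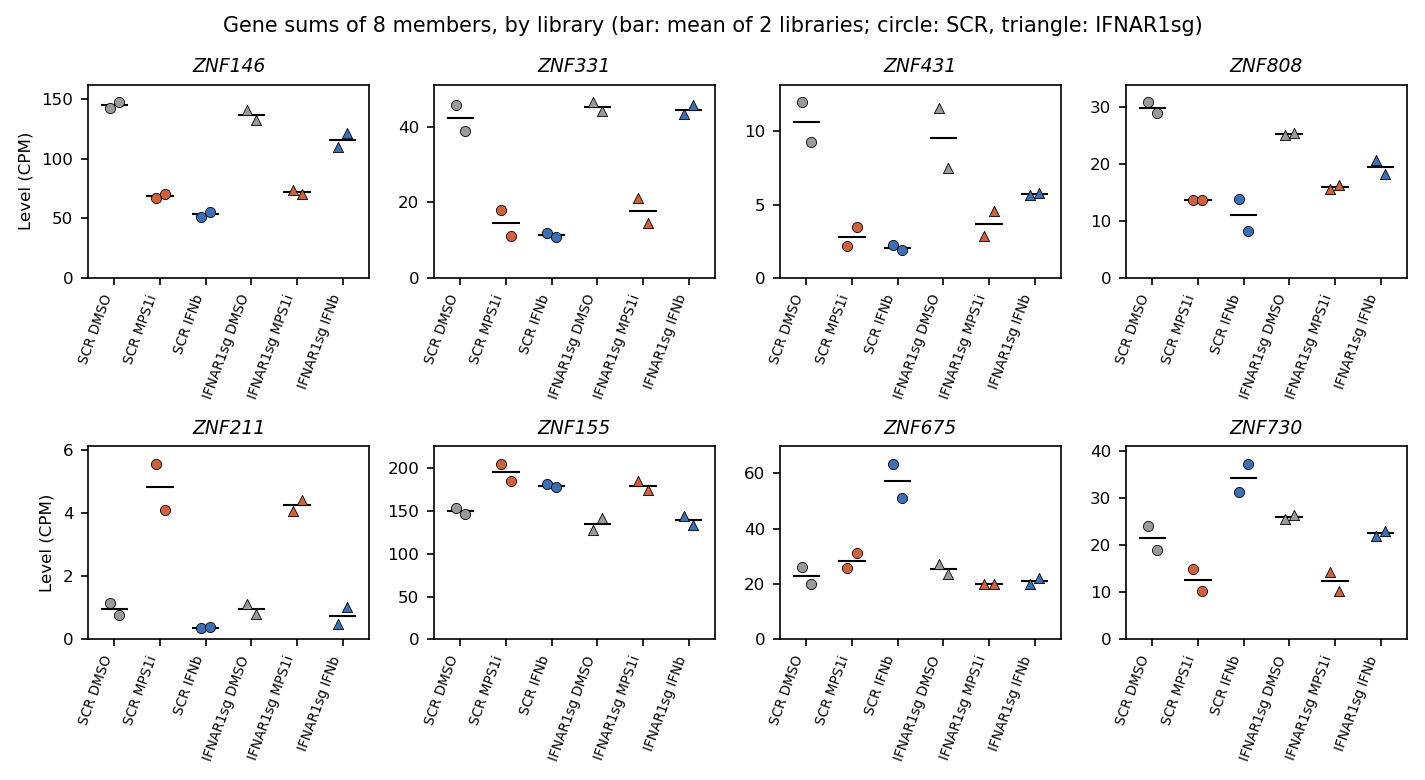
Gene sums of 8 members in CPM (y axis, from 0) in each of the 12 libraries, by group on the x axis; circles are SCR, triangles IFNAR1sg, and bars the mean of 2 libraries. ZNF146, ZNF331, ZNF431 and ZNF808 are lower with MPS1i in both genotypes, ZNF211 and ZNF155 higher, and ZNF675 and ZNF730 are highest in SCR IFNb.

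Counts and medians varied along the chromosome. Members were put into clusters wherever neighbours lay less than 1000 kb apart and at least 5 stood together, which gave 9 clusters and left 11 members outside. In the cluster from ZNF101 to ZNF254 (chr19:19668796-24129961, next to the centromere on the short arm), 7 of 17 tested members fell with MPS1i in SCR and 0 rose, with a median log2 fold change of -1.07 (range -1.87 to 0.31). The reads of all 37 members of that cluster summed to 172 and 149.7 CPM in SCR DMSO and 103 and 108 in SCR MPS1i. The cluster from ZNF565 to ZNF573 (chr19:36182060-37817300), which holds ZNF146, ZNF875 and ZNF573, had 7 of 20 members lower and 0 higher, with a median of -0.52. Its sum went from 531 and 538 CPM to 342 and 347. In both clusters the MPS1i libraries lay below the DMSO libraries.

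The other clusters varied, and not all of them differed from these. From ZNF575 to ZNF296 (chr19:43525497-45076588), 4 of 14 members fell and 1 rose, and the sum was 296 and 285 CPM in DMSO against 318 and 312 with MPS1i, so here the MPS1i libraries were the higher ones. That direction came from ZNF155, which rose and was the largest member of the sum: without it the cluster held 143 and 138 CPM with DMSO and 113 and 127 with MPS1i, so that the MPS1i pair was the lower one. Such sums without the largest member were computed after the data were seen. From ZNF175 to ZNF331 (chr19:51571298-53580269), 6 of 29 fell and 3 rose, with a median of -0.14. Its largest member was ZNF83, and without it the sum was 496 and 465 CPM with DMSO and 394 and 387 with MPS1i. The last cluster before the end of the long arm, from ZNF628 to ZNF446 (chr19:55476332-58481230), had 5 of 34 lower and 5 higher and a median of -0.04, and its sum went from 443 and 436 CPM to 377 and 346. Split at gaps of 500 kb, that cluster became one of 16 members with a median of -0.38 and one of 44 members with a median of 0.18. From ZNF653 to ZNF791 the count was 3 of 8 lower and 0 higher, with a median of -0.66. Its sum went from 102 and 89.9 CPM with DMSO to 75.1 and 65.4 with MPS1i. The pattern there was thus like that from ZNF101 to ZNF254 and from ZNF565 to ZNF573. From ZNF557 to ZNF846 the count was 2 of 10 lower and 1 higher, with a median of 0.21. The small clusters from ZNF554 to ZNF77 and from ZNF302 to ZNF792 had 2 and 3 tested members. No test was run between clusters, and the medians rest on few members each.

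Other protein-coding genes inside the clusters gave a partial contrast. None was tested inside the cluster from ZNF101 to ZNF254, so the members there have no such neighbours. Inside the cluster from ZNF565 to ZNF573, 5 neighbours were tested, of which 1 fell and 0 rose, with a median of -0.31. Inside the cluster from ZNF628 to ZNF446, 13 were tested, with 4 lower, 2 higher and a median of 0.17. Inside that from ZNF557 to ZNF846, 5 of 18 neighbours fell and 2 rose, with a median of -0.21 against 0.21 for the members. From ZNF653 to ZNF791 it was 1 of 7 lower and 2 higher (median -0.28), and from ZNF175 to ZNF331 1 of 5 lower and 2 higher (median -0.34). Inside that from ZNF575 to ZNF296, 4 of 17 neighbours fell and 3 rose, with a median of -0.35.

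**Figure D2:**
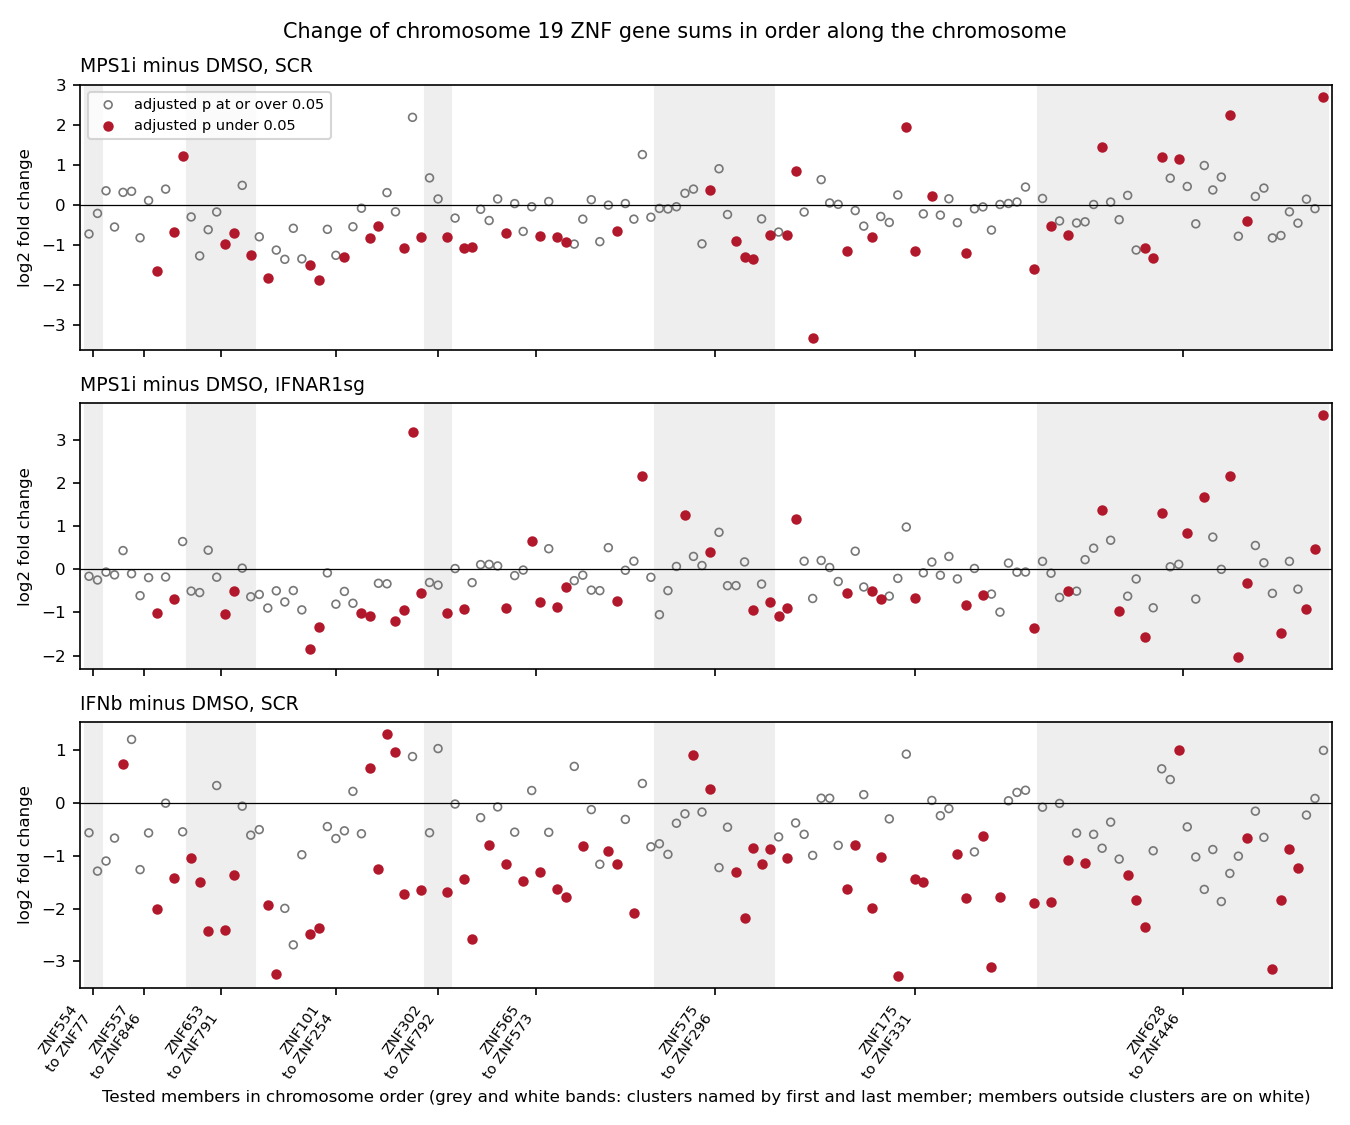
Log2 fold change (y axis) of the 146 tested members in their order along chromosome 19 (x axis, by rank), for MPS1i in SCR, MPS1i in IFNAR1sg and IFNb in SCR. Filled points have an adjusted p under 0.05; the bands mark clusters. In the cluster from ZNF101 to ZNF254 no filled point lies above 0 with MPS1i in either genotype, while 3 do with IFNb.

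The starts of many of these genes hold a shared sequence. The letters ACTACA, any 2 letters and TCCC, a form of the site bound by ZNF143 and chosen after the data were seen, were searched on both strands in RefSeq windows (GRCh38.p14) of 250 bases before to 50 after each start. They occurred in 36 of 217 members with a window, 16.6%, against 3.11% of 15842 genes with a window. Of the 36 members 14 lay in the cluster from ZNF565 to ZNF573 and 10 in that from ZNF575 to ZNF296. Among the 37 members from ZNF101 to ZNF254, 0 had the letters. These are counts of members and not of separate sites, since neighbours on opposite strands can share a site. ZNF568 and ZNF829 share the one at chr19:36916082-36916111, and ZNF345 and ZNF790 that at chr19:36850781-36850810. Sites of members whose sums changed are printed here on the strand of the gene, with the 12 matching letters in capitals, to show how alike they are across clusters.
ZNF146: aagcctcaaGGGAAATGTAGTccaaggcct
ZNF331: gggttatggACTACATTTCCCagaggcctc
ZNF573: taggcttaaACTACATTTCCCagagggcaa
ZNF180: gaggcttctGGGAATTGTAGTtctggctct
ZNF568: aggccctctGGGAAATGTAGTccagagcgg
ZNF45: ggggatgctGGGAAATGTAGTtccagagct
These lie at chr19:36214964-36214993 (plus strand), chr19:53520879-53520908 (plus), chr19:37779598-37779627 (minus), chr19:44500553-44500582 (minus), chr19:36916082-36916111 (plus) and chr19:43935295-43935324 (minus). Of the 27 tested members with the letters, 7 fell and 0 rose with MPS1i in SCR, and their median log2 fold change of -0.34 was near the -0.30 of the 119 others. The letters GAAA, any 2 letters and GAAA, the core of an interferon-stimulated response element, were found in 2 of 217 members (0.922%), ZNF160 and ZNF583, against 4.16% of all genes. A match is a description of the window and not a measured site.

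Whether a member's reading frame matched a KRAB box pattern made little difference to the median with MPS1i. Reading frames of GENCODE transcripts held a median of 12 C2H2 fingers by pattern (range 0 to 36), and 129 of 251 members matched a KRAB box pattern, or 151 when the pattern allowed 1 more residue that was added after the frames were seen. Tested members that matched had 16 of 79 lower and 4 higher with MPS1i in SCR (median -0.36), and those that did not 21 of 67 lower and 6 higher (median -0.30). With the wider pattern the counts were 19 of 89 lower and 5 higher, and 18 of 57 lower and 5 higher. A missing match does not show that a gene has no KRAB domain: ZNF808, a known KRAB gene, matched neither pattern. Length moved with the count of calls. The 49 members with the longest summed rows (13.8 to 68.6 kb) had 23 lower and 2 higher, with a median change of -0.44. The 49 with the shortest (1.36 to 7.7 kb) had 4 lower and 5 higher, with a median of 0.07. The longest also had a median of 998 reads over the 12 libraries against 124 for the shortest, and the part of read number in this contrast of counts was not tested.

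The knockout cells gave a like picture with MPS1i. Of 146 tested members 36 fell and 13 rose in IFNAR1sg, where 19.7% of all gene sums fell and 27.1% rose. The median of the members was -0.29, against 0.16 over all gene sums, a gap of -0.46 that ran from -0.45 to -0.46 under 3 other scalings. Both MPS1i libraries lay below both DMSO libraries for 62 members (29.9% of all gene sums) and above both for 25 (42.1% of all). The contrasts in the 2 genotypes share no library. In both, 27 members fell, which is 73% of the 37 in SCR and 75% of the 36 in IFNAR1sg, and 6 rose, 60.0% of 10 and 46.2% of 13. Of the 6, ZNF211 and ZNF446 reached the minimum of the filter in only 4 and 2 libraries, and ZNF536, of the 13, in 2. A high value in those libraries was needed for them to be tested, so their calls add nothing to this overlap. No member was called in opposite directions. The same overlaps were not computed over all gene sums, so these shares are not shown to be particular to the members. Without replicate 2 of IFNAR1sg DMSO 28 members were called and without replicate 2 of IFNAR1sg MPS1i 31.

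In IFNAR1sg, ZNF146 stood at 141 and 132 CPM with DMSO, 73.3 and 70.2 with MPS1i and 110.1 and 122 with IFNb, a change of -0.93 ± 0.12 with MPS1i (adjusted p = 2.00e-11). ZNF331 stood at 46.5 and 44.1 CPM with DMSO, 21.2 and 14.4 with MPS1i and 43.3 and 45.7 with IFNb (-1.35 ± 0.18 with MPS1i, adjusted p = 1.35e-10). For both genes the MPS1i pair was the lowest of the genotype, while the IFNb pair lay between it and DMSO for ZNF146 and overlapped DMSO for ZNF331. ZNF460 went from 27.1 and 23.7 CPM in DMSO to 7.24 and 9.82 with MPS1i, and ZNF573 from 103 and 106 to 70.6 and 55.6. ZNF211 rose from 1.11 and 0.796 CPM to 4.06 and 4.42 and ZNF155 from 128 and 141 to 185 and 174. ZNF304 rose as well, by 1.30 ± 0.38. ZNF536, a gene of neural cells with no KRAB domain, had 53 and 28 reads in IFNAR1sg MPS1i and at most 4 in any other library.

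The difference between the genotypes in the MPS1i response was tested directly. Of the 146 members 0 were called higher and 0 lower for the interaction (change in SCR minus change in IFNAR1sg), where 0.334% and 1.08% of all gene sums were called. At an unadjusted p under 0.05 there were 8 members, 5.48% of those tested against 10.2% of all gene sums, and the DESeq2 Wald test called 0. The cluster from ZNF101 to ZNF254 again had 6 of 17 members lower and 0 higher, with a median of -0.81 in IFNAR1sg, and its sum went from 173 and 174 CPM to 109 and 109. The cluster from ZNF575 to ZNF296 again summed higher with MPS1i, at 309 and 291 CPM against 268 and 266, and again this came from ZNF155, since the rest held 124 and 117 CPM against 140.3 and 124.

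**Figure D3:**
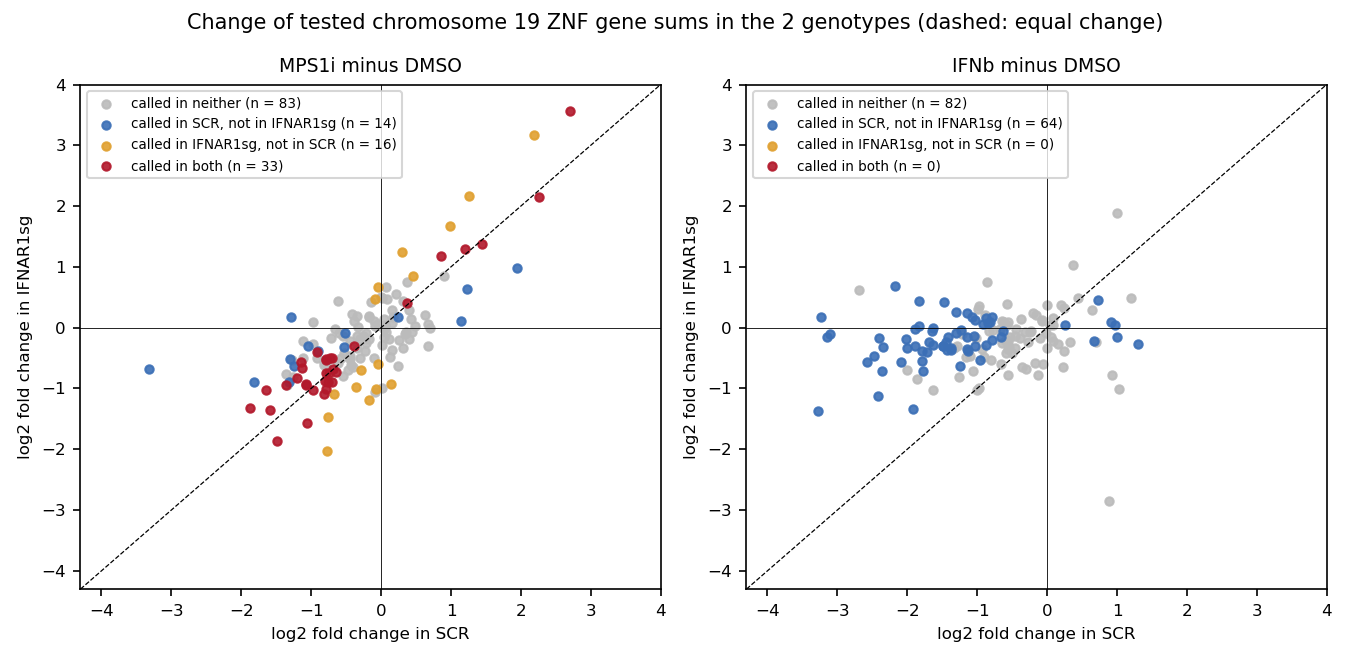
Log2 fold change of each of the 146 tested members in SCR (x axis) and in IFNAR1sg (y axis), for MPS1i at left and IFNb at right, coloured by where the adjusted p was under 0.05; the dashed line marks equal change. With MPS1i 33 members were called in both genotypes; with IFNb 64 were called in SCR and 0 in IFNAR1sg.

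With interferon beta in SCR cells, zinc finger gene sums fell about as often as gene sums in all. This contrast shares its DMSO libraries with that of MPS1i in SCR, so the 2 are given side by side and not as repeats. Of 146 tested members 57 fell and 7 rose, where 39.2% of all gene sums fell and 7.95% rose. The median of the members was -0.82, against -0.59 over all gene sums, -0.64 in ZNF genes of other chromosomes and -0.86 in other protein-coding genes of chromosome 19. Both IFNb libraries lay below both DMSO libraries for 92 members (55.6% of all gene sums) and above both for 13 (15.8% of all). Here the level of the whole table depended on the scaling. With factors computed on the gene sums the median of all gene sums moved by 0.60, to 0.01, and 29 of 149 members fell and 17 rose, where 18.0% and 17.3% of all gene sums did. Without TMM factors it moved by -0.49, and 90 members fell and 1 rose, where 56.1% and 3.7% of all did. The gap between members and all gene sums was -0.23 as scaled here and -0.23 to -0.24 under these and a further scaling. Without replicate 2 of SCR IFNb 41 members were called.

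The member with the smallest p was ZNF865 (chr19:55605405-55617269, plus strand), at 123 and 122 CPM with DMSO, 93 and 79.5 with MPS1i and 28.6 and 37.6 with IFNb in SCR. Its change with IFNb was -1.88 ± 0.14 (adjusted p = 5.03e-24), and the IFNb pair lay far below every other library, since in IFNAR1sg the sum ran from 106 to 147 CPM. ZNF701 (chr19:52555457-52587174, plus strand) stood at 91.3 and 88.7 CPM with DMSO, 68 and 85.5 with MPS1i and 31.2 and 32.7 with IFNb in SCR, so that its IFNb pair was low and its MPS1i pair near DMSO (-1.49 ± 0.15 with IFNb, adjusted p = 5.31e-16). ZNF146 and ZNF331 had changes of -1.44 ± 0.13 and -1.89 ± 0.22. ZNF875, ZNF573, ZNF460 and ZNF808 had -1.79 ± 0.19, -1.15 ± 0.14, -2.34 ± 0.31 and -1.44 ± 0.24. ZNF780B went from 19 and 22.7 CPM in DMSO to 5.95 and 3.76 with IFNb, and ZNF766 from 24.2 and 22.3 to 5.2 and 6.4. ZNF254 and ZNF44 fell by 1.72 and 1.37 on the log2 scale. All 12 of these members kept the call under every alternative run for them.

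Of the 7 members that rose with IFNb in SCR, 3 lay in the cluster from ZNF101 to ZNF254, where 6 others fell. ZNF675 (chr19:23525631-23687220, minus strand), whose protein is known to bind TRAF6, an adaptor of innate immune signalling, stood at 26 and 20.1 CPM with DMSO, 25.6 and 31.3 with MPS1i and 63.6 and 51.2 with IFNb in SCR. Both IFNb libraries were thus above every other library, with IFNAR1sg at 27.1 and 23.7 CPM with DMSO, 20.1 and 20.0 with MPS1i and 19.9 and 22.3 with IFNb. The change with IFNb was 1.31 ± 0.18 (adjusted p = 3.72e-10). A single row carried much of it, chr19:23652241-23652798 on the minus strand, which lies in an intron and names the repeat AluSq2. That row went from 9.5 and 5.23 CPM in SCR DMSO to 32.3 and 27.8 in SCR IFNb, and without any row that names a repeat the change of ZNF675 was 0.91 (adjusted p = 0.00080).

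ZNF730 (chr19:23075210-23147219, plus strand), of the same cluster, stood at 24 and 19 CPM with DMSO, 14.8 and 10.1 with MPS1i and 31.2 and 37.2 with IFNb in SCR. It was thus lower with MPS1i (-0.82 ± 0.23, adjusted p = 0.00177) and higher with IFNb (0.67 ± 0.21, adjusted p = 0.00437). The fall with MPS1i was also called in IFNAR1sg (-1.08 ± 0.21), and was -0.24 (adjusted p = 0.552) in SCR over rows that name no repeat, while without TMM factors the rise with IFNb was 0.17 with an adjusted p of 0.49. ZNF45 (chr19:43912629-43935278, minus strand) stood at 22.3 and 20.5 CPM with DMSO, 26 and 30.2 with MPS1i and 49.8 and 30.8 with IFNb in SCR (0.91 ± 0.20 with IFNb, adjusted p = 3.96e-05). Its row with the smallest p shared an exon base (chr19:43918962-43919086, minus strand) and went from 53.3 and 54.2 CPM in SCR DMSO to 119 and 121 in SCR IFNb. ZNF317, ZNF773 and ZNF726 had changes of 0.73 ± 0.26, 1.01 ± 0.37 and 0.97 ± 0.39, and ZNF726 had one of -0.0072 over rows that name no repeat. ZNF155 had 0.26 ± 0.11, which turned to -0.23 without TMM factors. Of the 7, ZNF675 alone kept its call under every alternative run for it.

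**Figure D4:**
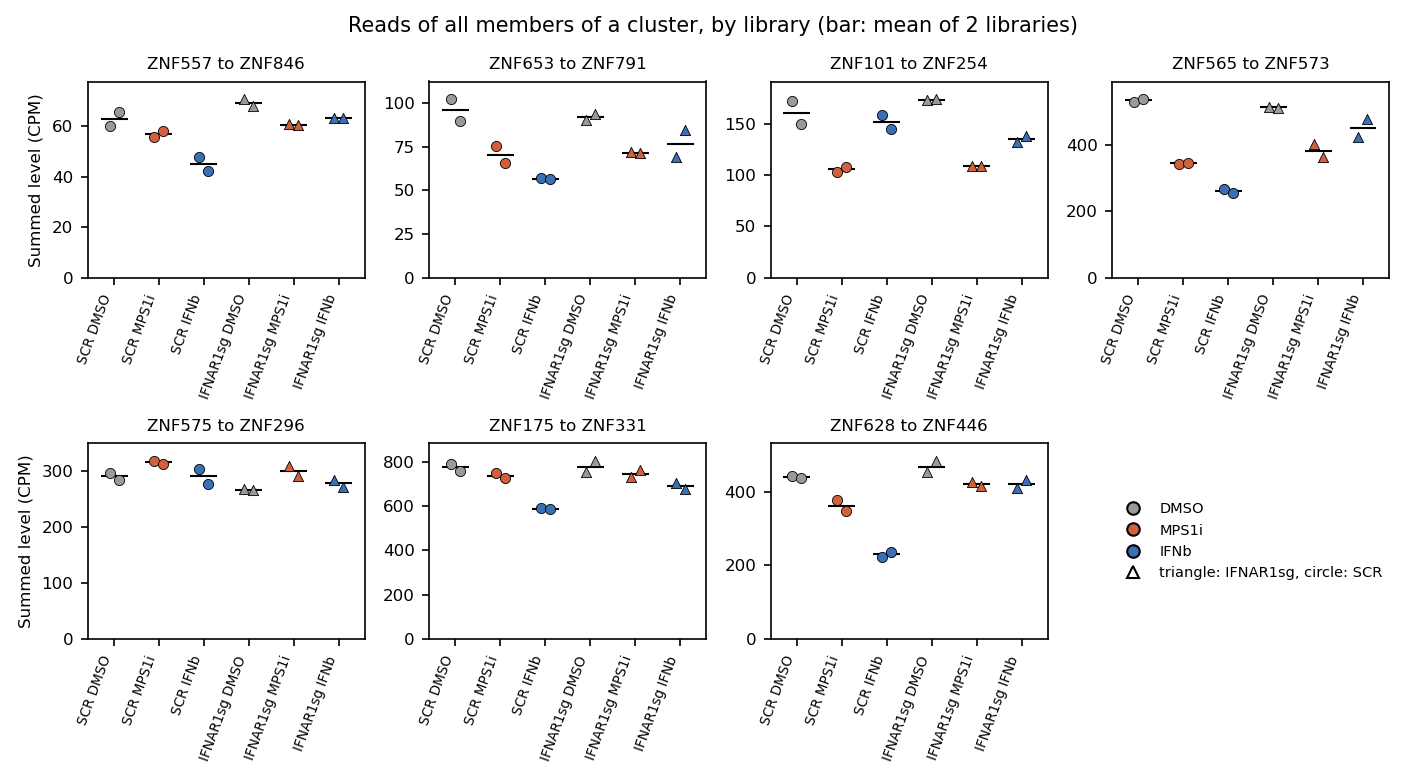
Reads of all members of a cluster, summed in CPM (y axis, from 0), in each of the 12 libraries by group (x axis) for the 7 clusters with more than 5 members; bars are means of 2 libraries. As scaled here, SCR IFNb is the lowest group in 5 of the 7, and from ZNF101 to ZNF254 the MPS1i libraries are lowest in both genotypes.

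By cluster, IFNb and MPS1i gave different orders in SCR. From ZNF101 to ZNF254 the IFNb libraries held 158 and 144 CPM, overlapping the DMSO libraries, while MPS1i had been lower than both. Without ZNF675 the IFNb libraries held 94.8 and 93.3 CPM there against 146 and 129.6 with DMSO, so the overlap came from that member. From ZNF565 to ZNF573 they held 269 and 257 CPM, from ZNF175 to ZNF331 589 and 585, and from ZNF628 to ZNF446 223 and 237. As scaled here, all lay below both the DMSO and the MPS1i pair. The log2 ratios of IFNb to DMSO sums were -1.02, -0.40 and -0.93. Factors computed on the gene sums moved the median of all gene sums by 0.60 in this contrast, and the cluster sums were not recomputed with them. Levels of IFNb sums against the other groups thus depend on the scaling. From ZNF575 to ZNF296 they held 303 and 277 CPM, which overlapped DMSO. Without ZNF155 they held 122 and 99.7 CPM there against 143 and 138 with DMSO, so this overlap too came from the largest member.

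In IFNAR1sg cells, IFNb changed no member by the test. Of 146 members 0 were called higher and 0 lower, where 0.647% of all gene sums were called in each direction. At an unadjusted p under 0.05 there were 16 members (10.2% of all gene sums), and the DESeq2 Wald test called 0. The median of the members was -0.18, against -0.06 over all gene sums, and 102 of 146 had a negative change, as did 58.4% of all gene sums. The 2 genotypes in DMSO did not differ at any member (0 higher and 0 lower, 0.0348% of all gene sums in each direction). There 6 members had an unadjusted p under 0.05, 4.11% of those tested against 7.88% of all gene sums, and DESeq2 called 0. The difference between the IFNb responses was called for 43 members, 40 lower in SCR and 3 higher, where 28.9% and 4.27% of all gene sums were called. With factors computed on the gene sums the split was 17 of 149 lower and 10 higher, where 12.2% and 10.0% of all gene sums were called. The 4 lower members with the smallest p were ZNF865 (-1.59 ± 0.19), ZNF146 (-1.21 ± 0.17), ZNF331 (-1.87 ± 0.28) and ZNF701 (-1.19 ± 0.20). The 3 higher ones were ZNF675 (1.57 ± 0.26), ZNF730 (0.88 ± 0.28) and ZNF45 (0.82 ± 0.27). The interaction rests on the SCR IFNb libraries that stood apart, and the part of that in it was not tested.

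Members known to bind retroelements were followed as a list of 11, chosen by function. Of these 9 had summed rows and 5 were tested. ZNF91, which represses SVA elements, stood at 22.5 and 27.5 CPM with DMSO, 17.9 and 16.6 with MPS1i and 10.8 and 10.2 with IFNb in SCR. It fell with both MPS1i (-0.53 ± 0.21, adjusted p = 0.0292) and IFNb (-1.25 ± 0.24), though the MPS1i call was lost under 5 of 23 alternatives. ZNF808, already described, fell with both treatments as well. ZNF765 stood at 46.5 and 50.5 CPM with DMSO, 45.4 and 53.5 with MPS1i and 45.7 and 54.2 with IFNb in SCR, with DMSO and both treatments overlapping. With IFNb its call depended on the scaling, at -0.45 (adjusted p = 0.012) without TMM factors and 0.62 (adjusted p = 0.00041) with factors computed on the gene sums. ZNF528 in SCR had 24 and 19 reads with DMSO, 15 and 21 with MPS1i and 1 and 1 with IFNb, and was called lower with IFNb. ZNF649 had 11 and 6 reads with DMSO and 1 and 0 with MPS1i, and was called lower with MPS1i, with no fold given on so few reads. That call of ZNF649 was lost under 3 of 21 alternatives: by DESeq2 (adjusted p = 0.067), without replicate 1 of SCR DMSO (0.124) and without replicate 2 of SCR MPS1i (0.263). ZNF649 reached the minimum of the filter in 3 libraries only, with its highest values in DMSO and IFNAR1sg IFNb libraries. It was tested because it was high there, so its lower call with MPS1i supports nothing further. In all, 3 of the 5, ZNF649 among them, fell with MPS1i in SCR (21.8% of all gene sums). With IFNb in SCR 3 fell (39.2%) and with MPS1i in IFNAR1sg 1 (19.7%), and 0 rose.

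The partners through which KRAB zinc finger proteins act were read as a list of 28 genes, all tested. In SCR, 11 fell and 3 rose with MPS1i, and 14 fell and 1 rose with IFNb; in IFNAR1sg, 12 fell and 2 rose with MPS1i. Of all gene sums 21.8% fell and 22.3% rose in the first contrast, 39.2% and 7.95% in the second, and 19.7% and 27.1% in the third. The medians were -0.44, -0.58 and -0.37. SETDB1, the methyltransferase recruited by TRIM28, had log2 fold changes of -1.16 ± 0.19 with MPS1i and -1.51 ± 0.21 with IFNb in SCR and -1.09 ± 0.17 with MPS1i in IFNAR1sg. TRIM28 itself did not pass the test, at 0.91 ± 0.62, -0.33 ± 0.80 and -0.28 ± 0.54. The maintenance methyltransferase DNMT1 and its partner UHRF1 fell with MPS1i in SCR by 1.42 and 1.32 on the log2 scale, and CBX5, a heterochromatin protein, by 1.15. DAXX and CHD3 rose with MPS1i in SCR, at 1.58 ± 0.43 and 1.09 ± 0.30. CHD4 was called as well, but its level was 0 and 0.194 CPM with DMSO and 0.927 and 1.73 with MPS1i, so no fold is given.

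Single rows in the bodies of members were tested as well, each in a fit over 89111 rows. With MPS1i in SCR, 28 of 305 member rows fell and 11 rose, where 7.97% and 9.55% of all rows were called. With IFNb in SCR 76 fell and 17 rose, where 18.1% and 15% of all rows did. With MPS1i in IFNAR1sg 30 fell and 4 rose, where 7.87% and 9.4% did. The row with the smallest p that fell with MPS1i in SCR lay in an intron of ZNF146 (chr19:36229698-36231216, plus strand) and names AluSp. In SCR it held 30.5 and 34.9 CPM with DMSO, 10.5 and 8.85 with MPS1i and 4.83 and 10.2 with IFNb (log2 fold change -1.76 ± 0.26 with MPS1i). A second intronic row of ZNF146, with 3 AluSx names, went from 22.5 and 31.8 CPM to 11.4 and 12.7. The row that rose with the smallest p belongs to ZNF274, whose protein binds the ends of other zinc finger genes and recruits SETDB1. That row (chr19:58213562-58215548, plus strand) shares exon bases and went from 4.17 and 4.26 CPM in SCR DMSO to 9.89 and 13.4 in SCR MPS1i (1.48 ± 0.34). The intronic sum of ZNF274 did not pass the test in that contrast, at -0.45 ± 0.24.

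Reads on the opposite strand of members were read apart from those on their own strand. Antisense sums of 80 members were tested, in a fit chosen after the data were seen. With MPS1i in SCR 6 rose and 1 fell, where 21% and 1.12% of all antisense sums did. In IFNAR1sg 10 rose and 0 fell, where 31.7% and 0.595% did. With IFNb in SCR 6 rose and 10 fell, where 26.5% and 3.8% did. ZNF787 and ZNF180 fell on their own strand and rose on the other with MPS1i in SCR. For ZNF787 the gene's strand went from 31.3 and 28.7 CPM to 19.5 and 16.8 and the opposite strand from 3.33 and 7.55 CPM to 13 and 11.9.

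Rows that name a repeat made up more of the members' reads than of all gene sums, though not for every family. Rows that name an Alu held 47.1% of member reads and 28.1% of their bases, against 29.8% and 19.6% over all gene sums. Rows with a name of an endogenous retroviral element held 19.1% of member reads against 10.1%, and rows that name no repeat 31.1% against 40.6%. Rows with an L1 name went the other way, at 13.3% of member reads against 15.9%. Summed over rows with no repeat name alone, 22 members were called with MPS1i in SCR, 19 lower and 3 higher, of 118 tested. The share of all gene sums called over such rows is not given here, so these counts are not shown to be particular to the members.

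The members resemble each other in their coding parts, which bears on how reads of exon-sharing rows could be assigned. By 50-base words of the reading frames, 45 of 251 members shared more than 10% of their words with another member. These include entries that span neighbouring genes, such as ZNF559-ZNF177, with 94.8% of words shared, most with ZNF177. The linker between fingers recurs, and its 3 most widespread forms are printed to show how little neighbouring genes can differ over a short stretch; no letters are capitalised because no part is singled out.
Linker form 1: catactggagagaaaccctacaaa
Linker form 2: catactggagagaaaccttacaaa
Linker form 3: cacactggagagaaaccctatgaa
The first occurred 134 times among 1615 linkers and in 34 members. Gene sums leave out exon-sharing rows, and 89 such rows of members held 24919 reads. The labels do not say how reads that match several places were counted. Of the tested members 18 shared more than 10% of their words, among them ZNF431, ZNF808, ZNF254, ZNF701, ZNF765, ZNF773 and ZNF578. The words come from coding bases, which the gene sums leave out, so they do not measure how alike the summed rows are. Likeness of introns was not examined, so how certain these values are is not known. Of these 18 members 3 fell and 2 rose with MPS1i in SCR, with a median change of 0.03.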

How the data were processed

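The deposited table held counts of reads in short stranded genomic rows for all 12 libraries counted by the authors. Per the submitters' processing notes the tools were STAR, featureCounts and HOMER on hg38, with trimming by cutadapt, Trim Galore and Trimmomatic. Versions and the treatment of reads with several places are not given in the sources used here. Per the labels' protocols, libraries came from the SMARTer Stranded Total RNA kit.

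Rows were assigned to GENCODE 29 genes by strand. Counts of rows that touch 1 gene and no exon were summed per gene (30.8% of all reads). Sums passed filterByExpr of edgeR 4.0.16 (minimum count 10, total 15, proportion 0.7), were scaled by TMM, and were tested with glmQLFit and glmQLFTest in R 4.3.3 over all 6 groups; the standard error is the log2 fold change over the root of F. DESeq2 1.42.0 was an alternative. The steps were tested on simulated data.

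The members, gene lists and tests were chosen with earlier results of these data known. Named members were the called ones with the smallest p (up to 12 lower and 8 higher with MPS1i and with IFNb in SCR, 4 each way in other contrasts), the highest per kb in each cluster, and all tested retroelement binders; named rows were the 3 with the smallest p each way. Antisense sums and the promoter letters were added after the data were seen. No pair of libraries agreed within sampling noise (chi-square per degree of freedom 1.54 to 2.74 within groups).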

Additional observations from a re-analysis of the deposited data

Results flagged for a closer look

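Of the 146 tested zinc finger genes, 43 had an IFNb response that differed between SCR and IFNAR1sg by the interaction term of edgeR (adjusted p under 0.05), 40 lower and 3 higher in SCR. Of all gene sums 28.9% and 4.27% were called, so the members were not called more often than the rest. The difference is the log2 change in SCR minus that in IFNAR1sg. It was -1.21 for ZNF146, -1.87 for ZNF331, -1.59 for ZNF865 and -1.19 for ZNF701, in each of which both SCR IFNb libraries lay below all 4 IFNAR1sg libraries of DMSO and IFNb. It was 1.57 for ZNF675, 0.82 for ZNF45 and 0.88 for ZNF730, in each of which both SCR IFNb libraries lay above those 4. These differences rest on the SCR IFNb libraries, which also had fewer rows with a read than the other 10, and the part of that in the differences was not tested.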

How the results depend on the processing

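Each count of called members was recomputed under 23 alternatives, or 22 where a contrast needs the SCR IFNb libraries. With MPS1i the counts were 47 in SCR and 49 in IFNAR1sg. Over rows that name no repeat they were 22 and 26, with fewer members tested, and DESeq2 called 33 and 31. The shares of all gene sums called over rows that name no repeat and by DESeq2 are not given here. Counts under these alternatives thus describe the members alone and are not set against the rest. The IFNb interaction, 43 members, was 20 over rows that name no repeat and 27 with factors computed on the gene sums; the cause was not tested. IFNb in IFNAR1sg had 1 call in place of 0 without TMM factors, with rows of several genes included, and in the fit of its own groups. Leaving out 1 library gave 28 to 48 calls for MPS1i in SCR, 41 to 64 for IFNb in SCR, 28 to 49 for MPS1i in IFNAR1sg, 31 to 46 for the IFNb interaction and 0 to 0 for the other 3 contrasts. Directions turned for ZNF614 when exon-sharing rows were added (0.079 with MPS1i, 0.32 with IFNb), for ZNF865 with MPS1i (0.27) and ZNF726 with IFNb (-0.0072) over rows that name no repeat, and for ZNF155 (-0.23) and ZNF765 (-0.45) with IFNb without TMM factors. Leaving out the largest member, chosen after the data were seen, turned the MPS1i log2 ratio of the sum from ZNF575 to ZNF296 to -0.23 in SCR and -0.13 in IFNAR1sg, and that from ZNF557 to ZNF846 to 0.048 in SCR. Of 26 named members called in each contrast, 9 kept the call under all alternatives run for them with MPS1i in SCR and 19 with IFNb. Libraries of the same replicate number did not deviate together (correlations -0.05 to 0.06). Sampling noise in low counts could hide a pairing, so this check cannot exclude one. With the replicate block the counts were 47 for MPS1i in SCR, 64 for IFNb in SCR, 48 for MPS1i in IFNAR1sg, 45 for the IFNb interaction and 0 for the rest. Depth limits the low members: 1 read is worth up to 0.376 CPM, and 55 members with summed rows were too low to test.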
